A study of Mus musculus with 2 samples.

Results

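Genes of the mitochondrial respiratory chain and ATP synthase were followed across the cell types of mouse back skin and between a control and a miR-205-induced library. Members were taken by symbol from the feature table: Nduf genes (complex I), Uqcr genes (complex III), Cox4 to Cox8 subunit genes (complex IV), Atp5 genes (complex V, the ATP synthase) and the protein-coding genes of the mitochondrial genome (mt-Nd, mt-Cytb, mt-Co and mt-Atp). Each member needed at least 20 UMIs (unique molecular identifiers, counted mRNA molecules) over the kept cells of both libraries. Of 31053 features, 91 matched and 86 met the minimum, of which 73 were encoded in the nucleus and 13 in mitochondria. The 73 nuclear members were 37 genes of complex I, 8 of complex III, 12 of complex IV and 16 of complex V, and the 13 mitochondrial members were 7, 1, 3 and 2. The 5 below the minimum were Cox7b2, Cox6a2 and Cox8c at 0 UMIs, a second Atp5o identifier at 0 UMIs, and Cox8b at 9 UMIs. The pattern of symbols does not take in Cox4i1, Ndufab1 or Cyc1, which were read in a list of electron carriers instead.

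Each group was 1 mouse and 1 10x Genomics library, from back skin at postnatal day 53. The induced mouse carried a miR-205 transgene under a tetracycline-responsive promoter that K14-rtTA switches on in keratin 14-expressing epithelium, and the control was gender-matched and, per the study's methods, a littermate. Both mice carried K14-H2BGFP, and cells of both were sorted by surface proteins and GFP to a ratio of 3 epidermal to 5 follicular to 2 dermal cells. Doxycycline was fed in chow over 4 days, beginning at postnatal day 49. By the extraction protocol both mice received it, but the characteristics of the control sample read untreated. The labels give the strain as C57BL/6, and the study's methods say that the transgene was injected into FVB mice, so induction cannot be told apart from strain background, diet or any other difference between these mice. Because each group was a single library, induction could not be tested, and intervals of levels, shares and ratios are 95% intervals for counting error only, and those of medians cover the spread over genes.

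The respiratory chain passes electrons from NADH through complexes I, III and IV to oxygen and pumps protons across the inner mitochondrial membrane, and ATP synthase uses the gradient to make ATP. Complexes I, III, IV and V join subunits from the nuclear genome, which are translated in the cytosol and imported, to a few core subunits transcribed and translated inside the organelle. In skin, quiescent hair follicle stem cells (HF-SCs) are known to lean on glycolysis, whereas sebocytes fill their cytoplasm with newly made lipid. Several complex IV and complex I subunits exist as paralogs used in particular tissues, among them Cox6b2, known as a testis form, and Ndufa4l2, known as a hypoxia-inducible relative of Ndufa4.

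Sequencing gave 4545 control barcodes with 55465594 UMIs in all and 4264 induced barcodes with 49733560 UMIs. Cells with more than 200 and fewer than 5000 genes and under 10% mitochondrial UMIs were kept, which left 3936 control and 3628 induced cells with medians of 12198.5 and 11752.5 UMIs. The libraries shared 11 barcode sequences, 5 of them in kept cells of both. Of 24 clusters, 16 had at least 50 cells in each library. Clusters were named from marker genes, and 13 passed the naming rule. The largest unnamed clusters used here are given by number with leading genes: 0 (Igfbp3, Epgn), 1 (Flg2, Lor), 2 (Lgr6, Gata6), 4 (Ntrk2, Fst), 6 (Lgr5, Tagln, Acta2), 9 (Krt8, Krt18), 10 (Cfap57, Tnfrsf19), 11 (Pthlh, Col4a4) and 14 (Fmod, Kera). Cluster 6 had all 6 hair germ markers raised but also 4 of 6 smooth muscle markers, so it kept its number. Cluster 14 kept its number too, with 7 dermal fibroblast, 5 smooth muscle and 4 Schwann markers raised. No member was among the genes that defined the clusters. Genes with near-identical processed pseudogenes, common among nuclear members, and the overlapping reading frames of mt-Atp8 with mt-Atp6 and of mt-Nd4l with mt-Nd4 make single-gene counts less certain.

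The induced microRNA and 6 promoters are shown first. The mature miR-205-5p sequence from RefSeq, with its seed (bases 2 to 8) in capitals, is shown because it is the microRNA that the transgene carries.
miR-205-5p: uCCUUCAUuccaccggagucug
The promoters belong to nuclear members that the results below turn on: Cox6b2 and Uqcr11 for their spread over cell types, Cox7a2l and Uqcrh for a higher level in the induced library in most clusters, and Cox7c and Ndufa11 for a lower one. Each line covers 170 bases before to 30 bases after the RefSeq start (GRCm38.p6), read along the gene's strand, with matches to the NRF1, ETS and YY1 motifs named below in capitals. The windows are chr7:4753065-4753264 (minus strand) for Cox6b2, chr10:80406792-80406991 (minus) for Uqcr11, chr17:83514304-83514503 (minus) for Cox7a2l, chr4:116075041-116075240 (minus) for Uqcrh, chr13:86046766-86046965 (minus) for Cox7c and chr17:56717592-56717791 (plus) for Ndufa11.
Cox6b2: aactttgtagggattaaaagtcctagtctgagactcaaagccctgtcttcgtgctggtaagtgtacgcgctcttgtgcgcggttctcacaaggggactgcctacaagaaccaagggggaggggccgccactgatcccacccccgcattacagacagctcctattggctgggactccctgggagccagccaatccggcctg
Uqcr11: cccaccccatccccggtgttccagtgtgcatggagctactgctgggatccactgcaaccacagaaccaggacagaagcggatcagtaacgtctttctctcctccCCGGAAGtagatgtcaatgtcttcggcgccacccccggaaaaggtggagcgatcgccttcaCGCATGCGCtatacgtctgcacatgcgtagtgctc
Cox7a2l: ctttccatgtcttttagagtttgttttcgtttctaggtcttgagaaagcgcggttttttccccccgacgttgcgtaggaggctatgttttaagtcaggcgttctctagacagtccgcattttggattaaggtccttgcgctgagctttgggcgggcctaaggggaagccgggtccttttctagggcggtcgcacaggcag
Uqcrh: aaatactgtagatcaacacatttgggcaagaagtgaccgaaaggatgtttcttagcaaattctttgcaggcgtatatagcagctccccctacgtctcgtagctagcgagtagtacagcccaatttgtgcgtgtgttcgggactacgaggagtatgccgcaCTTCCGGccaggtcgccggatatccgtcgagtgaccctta
Cox7c: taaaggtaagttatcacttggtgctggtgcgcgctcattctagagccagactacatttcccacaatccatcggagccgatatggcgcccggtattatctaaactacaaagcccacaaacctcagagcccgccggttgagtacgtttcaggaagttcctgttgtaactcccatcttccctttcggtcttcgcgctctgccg
Ndufa11: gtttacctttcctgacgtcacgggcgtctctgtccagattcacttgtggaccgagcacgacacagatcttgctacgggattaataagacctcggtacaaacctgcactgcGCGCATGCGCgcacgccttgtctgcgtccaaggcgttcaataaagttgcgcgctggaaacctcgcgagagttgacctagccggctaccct
Uqcr11 held an ETS match at -66 and an NRF1 match at -5 from the start, Uqcrh an ETS match at -10, and Ndufa11 a palindromic NRF1 match read on both strands at -60 and -59. No capital appears in the windows of Cox6b2, Cox7a2l and Cox7c, which says only that these letters are not there. NRF1 and the ETS factor GABPA are known regulators of nuclear respiratory genes.

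Promoters of 63 of the 73 nuclear members were matched in RefSeq, and 10 were not, among them Ndufa4l2, Uqcrq and Uqcrb. Over the full windows of 250 bases before to 50 after the start, searched on both strands, the NRF1 motif (GCGCANGCG) was in 18 of 63 members (28.6%), against 7.03% of all 27025 genes with a promoter and 8.89% of the 19409 of them that are in the feature table. The ETS motif (CCGGAAG) was in 14 of 63 (22.2%) against 9.93% and 12.1%, and the YY1 motif (AAGATGGCG) in 7 of 63 (11.1%) against 1.64% and 2.05%. CREB (TGACGTCA) matched 4 of 63 members (6.35%) against 2.03% and 2.51%, and ERR (TCAAGGTCA) only 1 of 63 (1.59%) against 0.466% and 0.433%. SP1 (GGGCGG) was in 39.7% of members, above the 38.2% of all promoters but below the 46.2% of those in the feature table, and the TATA box (TATAAA) was in 7.94% against 15.7% and 14.7%. These are shares of letters found, with no test, and no motif contains another.

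Across cell types, nuclear respiratory chain mRNA was highest in sebaceous gland-like cells and lowest in dermal papilla-like cells, in both libraries. HF-SC-like cells here are those of cluster 3, unless the small cluster 19, which passed the naming rule with the same name, is given by number. The 73 nuclear members together took 2.97% (2.94 to 3.00) of all UMIs in control sebaceous gland-like cells and 2.98% (2.96 to 3.00) in induced ones. Cycling-like cells followed with 2.00% and 2.06%, and cluster 10 with 1.84% and 1.82%. At the other end, dermal papilla-like cells had 0.954% (0.931 to 0.977) in the control and 0.831% (0.815 to 0.847) in the induced library. HF-SC-like cells had 1.02% (1.00 to 1.03) and 1.10% (1.09 to 1.11), rank 15 and rank 14 of 16, and dermal fibroblast-like cells had 1.09% and 1.04%, so that the order of these 2 clusters differed between libraries. Suprabasal interfollicular epidermis (IFE)-like cells (1.60% and 1.66%) and inner bulge-like cells (1.43% and 1.36%) lay in between. The libraries gave the same top 3 clusters and the same last cluster, and whole libraries differed by less than any of these gaps (1.51% control, 1.52% induced). Among clusters with fewer cells, HF-SC-like cluster 19 (30 and 60 cells) had 1.82% and 1.77%, well above cluster 3, so a low nuclear share was not common to both HF-SC-like clusters. T cell-like cells had 1.21% and 1.33%, melanocyte-like cells 1.31% and 1.46%, and endothelial-like cells, only 7 and 14 of them, 0.896% and 1.11%.

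Sebaceous gland-like cells were highest for each complex in both libraries, whereas the lowest cluster depended on the complex. Complexes are grouped by symbol, so Ndufa4 and Ndufa4l2 count with complex I. Complex I nuclear genes took 0.886% of UMIs in control sebaceous gland-like cells, 0.285% in HF-SC-like cells and 0.265% in dermal papilla-like cells. For the ATP synthase genes the 3 shares were 1.00%, 0.356% and 0.319%, for complex IV 0.737%, 0.249% and 0.260%, and for complex III 0.343%, 0.126% and 0.110%. Control dermal fibroblast-like cells were lowest for ATP synthase (0.311%) and complex III (0.109%) and HF-SC-like cells for complex IV, while in the induced library dermal papilla-like cells were lowest for every complex. In dermal fibroblast-like cells the 7 fibroblast markers alone summed to 186900 CPM in the control and 140500 CPM in the induced library. They thus took a large part of the total, and their part in the low values of that cluster was not tested. Gene by gene, 63 of 72 nuclear members with at least 200 UMIs in the series reached their highest level in sebaceous gland-like cells in the control and 67 of 72 in the induced library. Their lowest level was in dermal papilla-like cells for 25 and 37 genes, in dermal fibroblast-like cells for 24 and 19, and in HF-SC-like cells for 13 and 3. The median member was 4.32-fold higher in its highest than in its lowest cluster in the control and 4.72-fold in the induced library. Cells differed among themselves too: over control sebaceous gland-like cells the nuclear share had a median of 2.57% and quartiles of 2.22% and 3.67%.

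**Figure D1:**
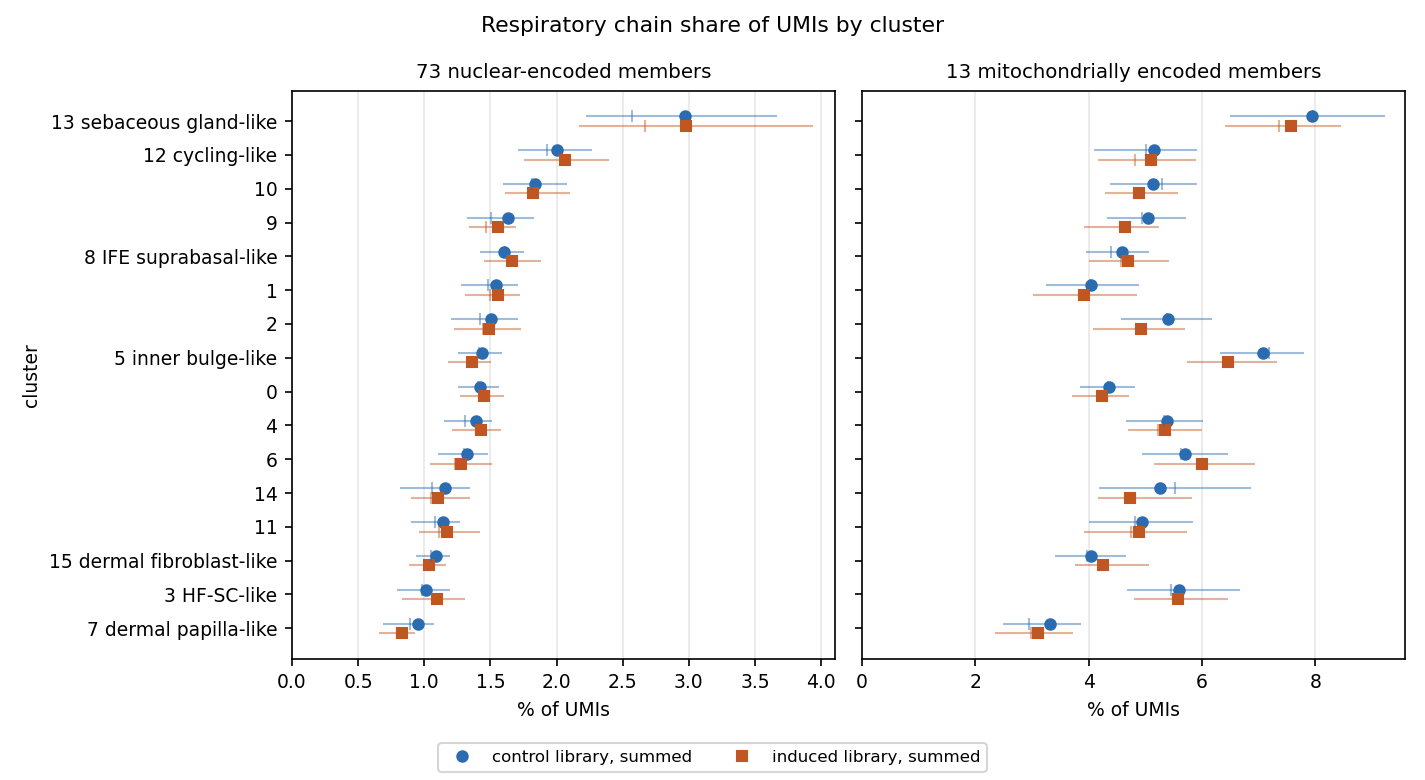
Share of all UMIs taken by the 73 nuclear (left) and 13 mitochondrial (right) members in 16 clusters, in % of UMIs, with points for the summed counts of each library (control circles, induced squares), a tick for the median cell and a line for its quartiles. Sebaceous gland-like cells lie at the right of both panels (2.97% and 7.95% in the control), whereas HF-SC-like cells are near the bottom for nuclear members (1.02%) but in the upper range for mitochondrial ones (5.59%).

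Mitochondrially encoded mRNA followed another order. Sebaceous gland-like cells were again first, with 7.95% of UMIs in the control and 7.57% in the induced library, but inner bulge-like cells came second (7.08% and 6.47%) followed by cluster 6 (5.70% and 6.01%). HF-SC-like cells, near the bottom for nuclear members, had rank 4 of 16 in both libraries, with 5.59% in each. Dermal papilla-like cells were last for both kinds (3.32% and 3.11%). Across the 16 clusters the nuclear and mitochondrial shares had a Spearman rho of 0.253 in the control and 0.224 in the induced library, and 0.0929 and 0.0571 without the sebaceous gland-like cluster. These coefficients describe clusters that share a library and a total. The median spread over clusters was smaller for the mitochondrial than for the nuclear members, at 2.41-fold in the control and 2.44-fold in the induced library. Of the 13 genes, 8 were highest in sebaceous gland-like and 3 in inner bulge-like cells in each library, and dermal papilla-like cells held the lowest level of 9 control and 13 induced genes.

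The cell filter bounds these mitochondrial levels, because the 13 members are the genes it counts. Of kept control sebaceous gland-like cells, 46.5% had 8 to 10% mitochondrial UMIs, just inside the limit, and 31.8% of the induced ones, against 20.5% and 13.2% of inner bulge-like cells. The limit removed 12.5% of control and 13.8% of induced barcodes. Among removed barcodes with over 200 genes, sebaceous gland markers summed to 5715 CPM (counts per 1000000 UMIs) of non-mitochondrial UMIs in the control and 1036 in the induced library, against 280.5 and 548.8 in kept cells. The nuclear members took 2.48% of their non-mitochondrial UMIs in the control and 1.25% in the induced library, against 1.59% and 1.60% in kept cells. Removed barcodes of the control were thus richer in sebaceous gland markers than those of the induced library. With a limit of 5% only 10 control and 11 induced sebaceous gland-like cells were left, which ranked first of 16 for the nuclear members but 15 (control) and 5 (induced) for the mitochondrial ones.

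Among single nuclear members, Ndufa4l2 and Cox6b2 varied far more over cell types than the rest. Ndufa4l2 had 861 CPM in control cluster 10 and 1293 CPM in induced cluster 10, and 1.29 and 5.59 CPM in sebaceous gland-like cells. The control ratio was 670-fold (185 to 5536), resting on 2 UMIs in the lower cluster, and the induced ratio 231-fold (132 to 449). Dermal fibroblast-like cells (726 and 444 CPM), cluster 0 (426 and 731 CPM) and suprabasal IFE-like cells (360 and 640 CPM) were also high, and HF-SC-like cells low (12.8 and 8.49 CPM). At least 1 Ndufa4l2 UMI was found in 92.7% of control and 97.4% of induced cells of cluster 10, at median depths of 11714 and 13125.5 UMIs. The shares in sebaceous gland-like cells, at deeper medians of 17484.5 and 19081 UMIs, were 2.33% and 4.55%. Its paralog Ndufa4, counted by symbol with complex I but known as a complex IV subunit, was highest where Ndufa4l2 was lowest, with 468 and 522 CPM in sebaceous gland-like cells against 132 and 157 CPM in cluster 10. The paralogs did not run opposite throughout. HF-SC-like cells were low in Ndufa4 as well (80.6 and 79.4 CPM), and suprabasal IFE-like cells were high in both, with 318 and 316 CPM of Ndufa4.

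Cox6b2 was highest in dermal papilla-like cells, at 118 CPM in the control and 228 CPM in the induced library. Cluster 1 had 0.282 and 0.759 CPM, so that the ratios were 420-fold (113 to 3530, on 2 UMIs) and 300-fold (127 to 932). Among the 16 clusters, cycling-like cells were next in the control with 26.1 CPM, 4.53-fold (3.27 to 6.28) below the dermal papilla-like cells. In the induced library cluster 14 was next with 47.6 CPM, and cycling-like cells had 20.95 CPM. Cox6b2 was seen in 39.4% (31.3 to 48.0) of control and 60.8% (54.1 to 67.3) of induced dermal papilla-like cells at median depths of 4503 and 5486.5 UMIs, and in 0.416% and 1.19% of cluster 1 at 13811 and 15176 UMIs. Its common paralog Cox6b1 ran from 150 CPM in dermal papilla-like to 691 CPM in sebaceous gland-like control cells. Dermal papilla-like cells thus held the highest level of Cox6b2 and the lowest of Cox6b1.

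**Figure D2:**
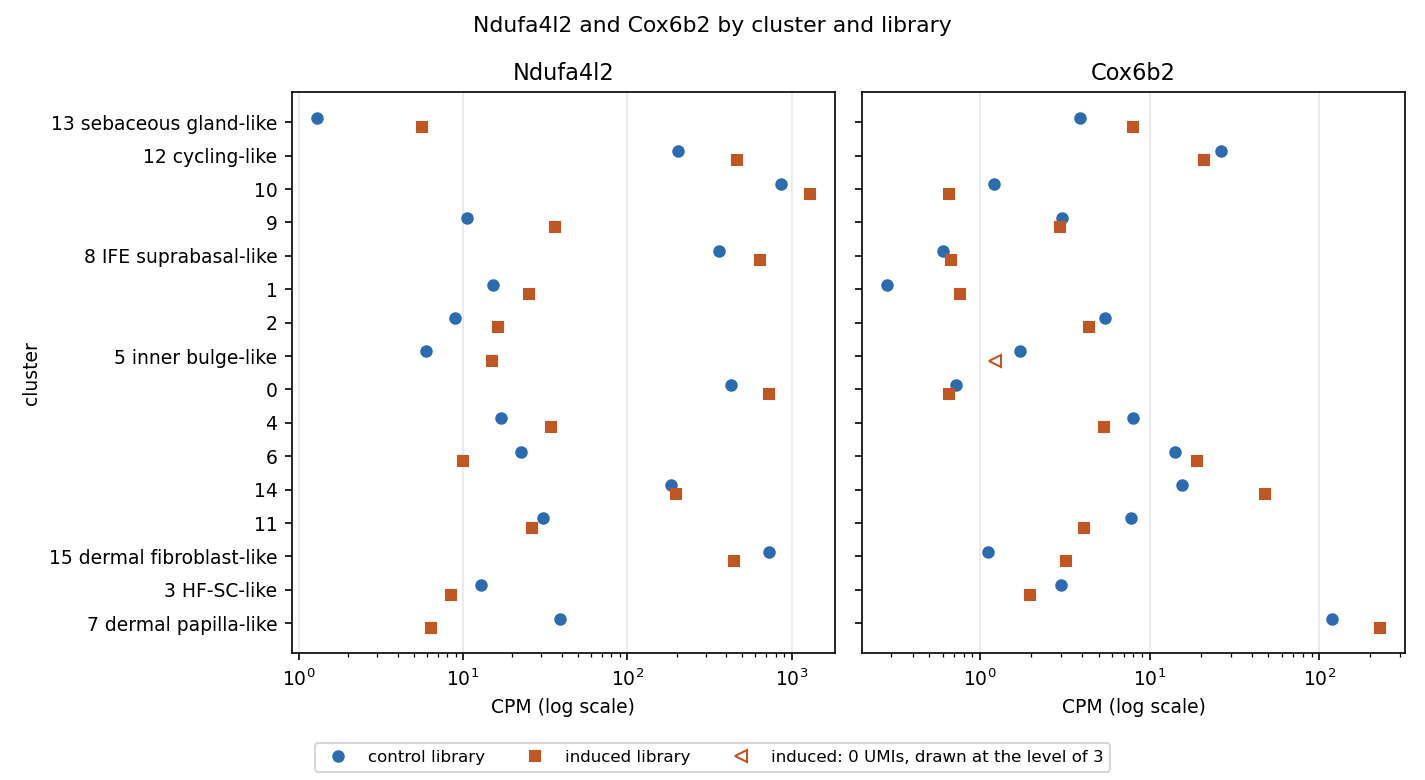
Level of Ndufa4l2 (left) and Cox6b2 (right) in 16 clusters, in CPM on a log scale, for the control (circles) and induced (squares) libraries, with an open triangle at the level of 3 UMIs where none was counted. Ndufa4l2 splits the clusters into a low set of at most 38.9 CPM and a high set of at least 184 CPM, and Cox6b2 stands out in dermal papilla-like cells (118 and 228 CPM).

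Uqcr11, a small complex III subunit, was 10.7-fold (7.41 to 16.1) higher in sebaceous gland-like than in dermal papilla-like control cells and 16.2-fold in the induced library. The complex I genes Ndufb7, Ndufa9 and Ndufa10 were 9.91-fold (against HF-SC-like cells), 9.32-fold (against dermal papilla-like cells) and 9.19-fold (against dermal fibroblast-like cells) higher in control sebaceous gland-like cells, and 6.55-fold, 6.78-fold and 5.35-fold in induced ones. The other listed isoforms spread less. Control levels of Cox8a ran from 328 to 1461 CPM, of Cox7a2 from 226 to 654, of Cox6a1 from 120 to 443, of Cox7b from 132 to 632 and of Cox7a2l from 112 to 405 CPM. The 3 genes of the proton-carrying c subunit of ATP synthase ran from 109 to 542 CPM (Atp5g1), 116 to 598 CPM (Atp5g2) and 105 to 332 CPM (Atp5g3). Among the 16 clusters, Atp5g1 and Atp5g3 were highest in sebaceous gland-like cells. Atp5g2 was about as high in cycling-like as in sebaceous gland-like cells, with 598 and 594 CPM in the control and 650.5 and 621 CPM in the induced library. Muscle forms were near 0: Cox7a1 had 17 and 12 UMIs in all kept cells, and 8 of the 9 UMIs of Cox8b came from sebaceous gland-like cells.

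Over all kept cells, induced and control libraries had nearly equal levels of the chain. The median log2 ratio (induced over control CPM) of the 72 nuclear members with at least 100 UMIs was 0.01, with 40 above and 32 below 0, where the median of all 12044 genes was 0.08. Past 1.5-fold, 1 nuclear member was higher and 0 lower, against 10.3% and 1.66% of all genes. That member was Cox6b2, with 6.70 CPM in the control and 11.7 CPM in the induced library (log2 ratio 0.80, 0.60 to 1.00). Ndufa4l2 (170 and 228 CPM, 0.43) and Cox7a2l (274 and 332 CPM, 0.28) were next. The lowest ratios belonged to Ndufs4, an accessory complex I subunit (80.3 and 71.2 CPM, -0.17), and to the complex III subunits Uqcrq (251 and 223 CPM, -0.17) and Uqcrb (346 and 311 CPM, -0.15). The mixture of cells differed too, since dermal papilla-like cells, where the Cox6b2 level was highest, were 142 of the control and 222 of the induced cells. In the control they held 79 Cox6b2 UMIs and cycling-like cells 77, and in the induced library 284 and 38. The part of the mixture in the Cox6b2 ratio was not tested.

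The 13 mitochondrial members had a median of -0.04, with 3 above and 10 below 0 and none past 1.5-fold. The cytochrome oxidase genes mt-Co1 (-0.00), mt-Co2 (0.02) and mt-Co3 (-0.02) and the ATP synthase gene mt-Atp6 (-0.01) were within 0.02 of equality. Cytochrome b, mt-Cytb, had 5661 CPM in the control and 5913 CPM in the induced library (0.06), and mt-Nd4 3439 and 3637 CPM (0.08). The other complex I genes were lower in the induced library: mt-Nd4l with 279 and 238 CPM (-0.23), mt-Nd3 with 1017 and 928 CPM (-0.13), mt-Nd6 (-0.13), mt-Nd1 (-0.09), mt-Nd5 (-0.09) and mt-Nd2 (-0.04). The short mt-Atp8 had 55.4 and 48.3 CPM (-0.20).

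HF-SC-like cells of cluster 3 had a higher nuclear share in the induced library, whereas in the small cluster 19 the shares were 1.82% and 1.77%, with overlapping intervals. Inner bulge-like cells also had Cd34, Lhx2, Postn, Krt15 and Sox9 raised, and their HF-SC markers summed to 13460 CPM (control) and 14850 CPM (induced). They went the other way, with nuclear shares of 1.43% and 1.36% and a median log2 ratio of -0.07. In cluster 3 the 69 members tested had a median log2 ratio of 0.16, with 56 above and 13 below 0, beside a median of 0.02 over all 5264 genes. The summed share went from 1.02% to 1.10% (log2 ratio 0.11, 0.09 to 0.14). Only Ndufa8 passed 1.5-fold upward and none downward, against 4.98% and 4.46% of all genes, so the shift was small and spread over many genes. Complex I had a median of 0.21 (30 higher, 6 lower), ATP synthase 0.16 (13 and 2), complex IV 0.09 and complex III 0.08. The 13 mitochondrial members stood at -0.02, with 5 above and 8 below 0.

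The highest ratios in HF-SC-like cells were those of the complex I subunits Ndufa8 (29.8 CPM in the control, 47.7 CPM in the induced library, 0.67 with an interval of 0.30 to 1.06) and Ndufs3 (37.3 and 54.2 CPM, 0.54), and of Atp5c1, the gamma subunit of the ATP synthase rotor (115 and 154 CPM, 0.42). The lowest were those of the complex IV subunit Cox7c (296 and 248 CPM, -0.25) and of the complex I subunits Ndufc2 (82.7 and 71.2 CPM, -0.21) and Ndufa11 (180 and 164 CPM, -0.13). Among mitochondrial members the ratios ran from -0.38 for mt-Nd6 to 0.04 for mt-Cytb. HF-SC markers summed to 11450 CPM in the control and 14620 CPM in the induced cells, all 7 with UMIs in both, and sebaceous gland markers to 73.1 and 15.4 CPM. The part of these marker differences in the result was not tested.

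Cluster 6, with hair germ and smooth muscle markers, leaned the other way for nuclear members. Its 69 members had a median of -0.13, with 22 above and 47 below 0 (all genes -0.03), while the summed share went from 1.32% to 1.28% (-0.05). The median was -0.33 over 55 genes under a 5% mitochondrial limit, and -0.24 with members among the variable genes, where the matching cluster held 262 of the 408 cells. Past 1.5-fold 1 member was higher and 4 were lower, against 7.35% and 6.18% of all genes. The lowest ratios were those of Atp5g1 (258 CPM in the control, 166 CPM in the induced library, -0.64), Uqcrq (190 and 123 CPM, -0.63) and Ndufs4 (64.9 and 41.9 CPM, -0.63). Cox7a2l (291 and 442 CPM, 0.60), Atp5c1 (209 and 306 CPM, 0.55) and the complex I subunit Ndufa6 (166 and 240 CPM, 0.53) lay at the other end. Mitochondrial members had a median of 0.00 and ran from -0.25 for mt-Nd1 to 0.24 for mt-Cytb. Smooth muscle markers summed to 64.9 CPM in the control and 361 CPM in the induced cells (5 and 4 of 6 with UMIs, Rgs5 at 0 in both), IFE basal markers were 17150 and 14510 CPM and Merkel markers 7.02 and 61.2 CPM, and their part in the result was not tested.

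Dermal papilla-like cells, a mesenchymal population outside the epithelium in which the K14 promoter is known to act, had the lowest nuclear median of the 16 clusters. Of 51 nuclear members tested, 15 were higher and 36 lower in the induced library, with a median of -0.31 beside -0.04 for all 2607 genes. The summed share was 0.954% and 0.831% (-0.20, -0.24 to -0.15). Past 1.5-fold 4 members were higher and 6 lower, against 5.29% and 6.29% of all genes. Medians by complex were -0.33 for complex I, -0.40 for complex III, -0.34 for complex IV (2 higher, 9 lower) and -0.18 for ATP synthase.

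Single genes in the dermal papilla-like cells spread in both directions. Atp5g1 (142 CPM in the control, 93.9 CPM in the induced library, -0.60), Atp5b, the catalytic beta subunit of ATP synthase (494 and 343 CPM, -0.53), and Cox7c (434 and 315 CPM, -0.46) had the lowest ratios among members with at least 200 UMIs. Cox6b2 (118 and 228 CPM, 0.94), Cox7a2l (112 and 182 CPM, 0.69) and Ndufa6 (102 and 157 CPM, 0.62) had the highest. Of 11 mitochondrial members tested 10 were lower, with a median of -0.11. The complex I genes mt-Nd4l (241 and 152 CPM, -0.66), mt-Nd1 (1294 and 907 CPM, -0.51) and mt-Nd5 (163 and 116 CPM, -0.49) were farthest from 0, and mt-Co1 (0.03) and mt-Nd4 (-0.00) nearest. All 7 dermal papilla markers had UMIs in both libraries but summed to 4480 CPM in the control and 2493 CPM in the induced cells. IFE basal markers were 2831 and 1859 CPM, HF-SC markers 374 and 640 CPM and the median depth 4503 and 5486.5 UMIs, and the part of these in the result was not tested.

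Sebaceous gland-like cells, the cells with the highest level, hardly differed between libraries for nuclear members. Their median was -0.00, with 34 above and 35 below 0 of 69 tested (all 3831 genes -0.03), and the summed share differed by 0.01, opposite in sign. None passed 1.5-fold in either direction, against 5.43% of all genes higher and 9.42% lower. Cox7a2l (361 CPM in the control, 528 CPM in the induced library, 0.55) was highest, followed by Uqcrh, the hinge protein of complex III (621 and 757 CPM, 0.29), and the complex I subunit Ndufb5 (332 and 394 CPM, 0.25). Atp5g1 (542 and 443 CPM, -0.29), Ndufv2 (197 and 165 CPM, -0.26) and Uqcr10 (445 and 374 CPM, -0.25) were lowest. Of the 13 mitochondrial members 12 were lower, with a median of -0.09. Complex I genes led here as well, with mt-Nd3 at 1259 and 944 CPM (-0.42), mt-Nd4l at 391 and 295 CPM (-0.41), mt-Nd1 (-0.33) and mt-Nd5 (-0.31), and a median of -0.31 over its 7 genes. Sebaceous gland markers summed to 6110 and 9307 CPM, all 7 with UMIs in both, and 46.5% and 31.8% of the cells lay just inside the mitochondrial limit, whose part in these values was not tested.

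**Figure D3:**
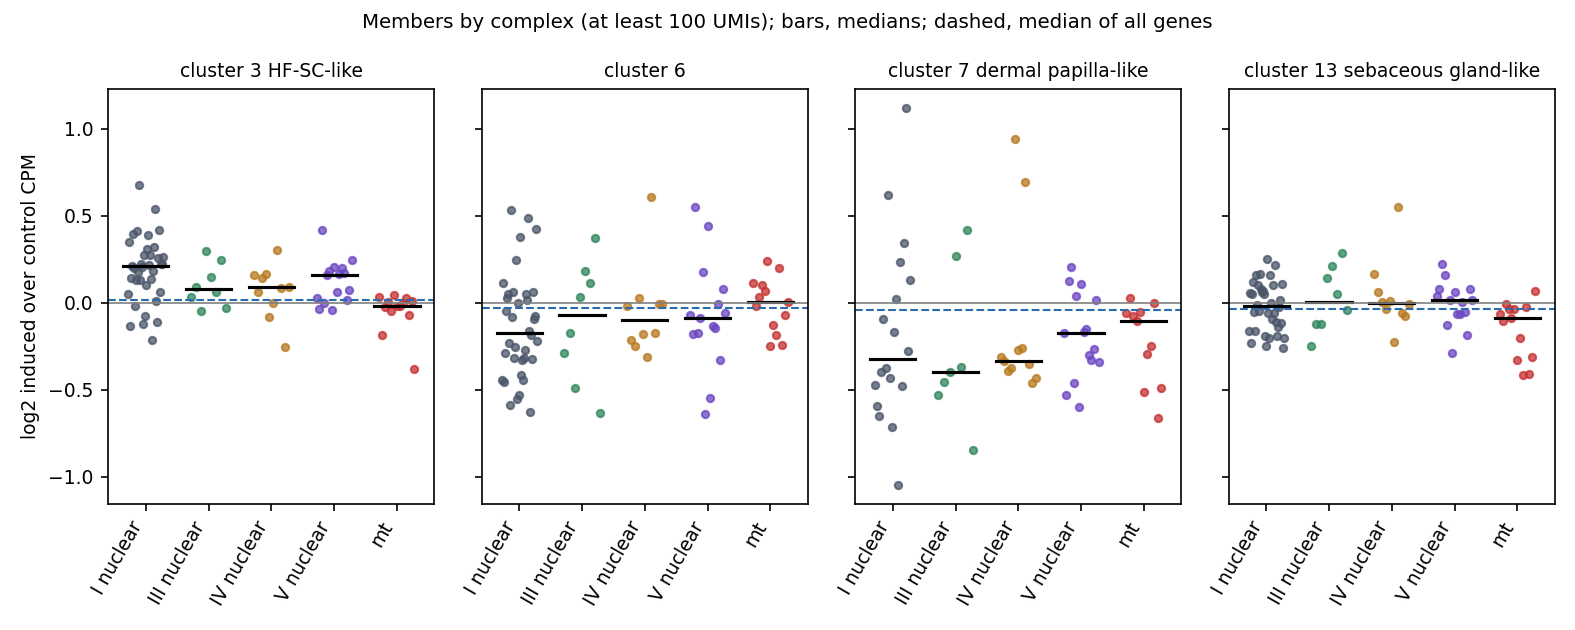
Log2 ratio of induced over control CPM for each member with at least 100 UMIs, by complex and genome, in the 4 populations described, with bars for medians and a dashed line for the median of all genes. Complex I points lie mostly above 0 in HF-SC-like cells (median 0.21) and mostly below in dermal papilla-like cells (-0.33), where points spread most widely.

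The other 12 clusters lay between these ends. Nuclear medians were 0.07 in cluster 4 (51 higher, 19 lower), 0.03 in clusters 0 and 1 and in cycling-like cells, 0.02 in cluster 11, and 0.01 in cluster 2, suprabasal IFE-like and dermal fibroblast-like cells. They were -0.04 in cluster 10, -0.07 in inner bulge-like cells (26 and 43), -0.08 in cluster 9 (20 and 49) and -0.13 in cluster 14 (21 and 38). Mitochondrial members had a negative median in most clusters. All 13 were lower in cluster 2 (median -0.16) and in inner bulge-like cells (-0.15), and all 12 tested in cluster 10 (-0.10) and in cluster 14 (-0.16). Dermal fibroblast-like (0.05) and suprabasal IFE-like cells (0.01) lay just above 0. Nuclear and mitochondrial medians therefore differed in sign in several clusters. In HF-SC-like cells the mitochondrial median was near 0 (-0.02), and its interval over genes (-0.07 to 0.03) included 0.

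**Figure D4:**
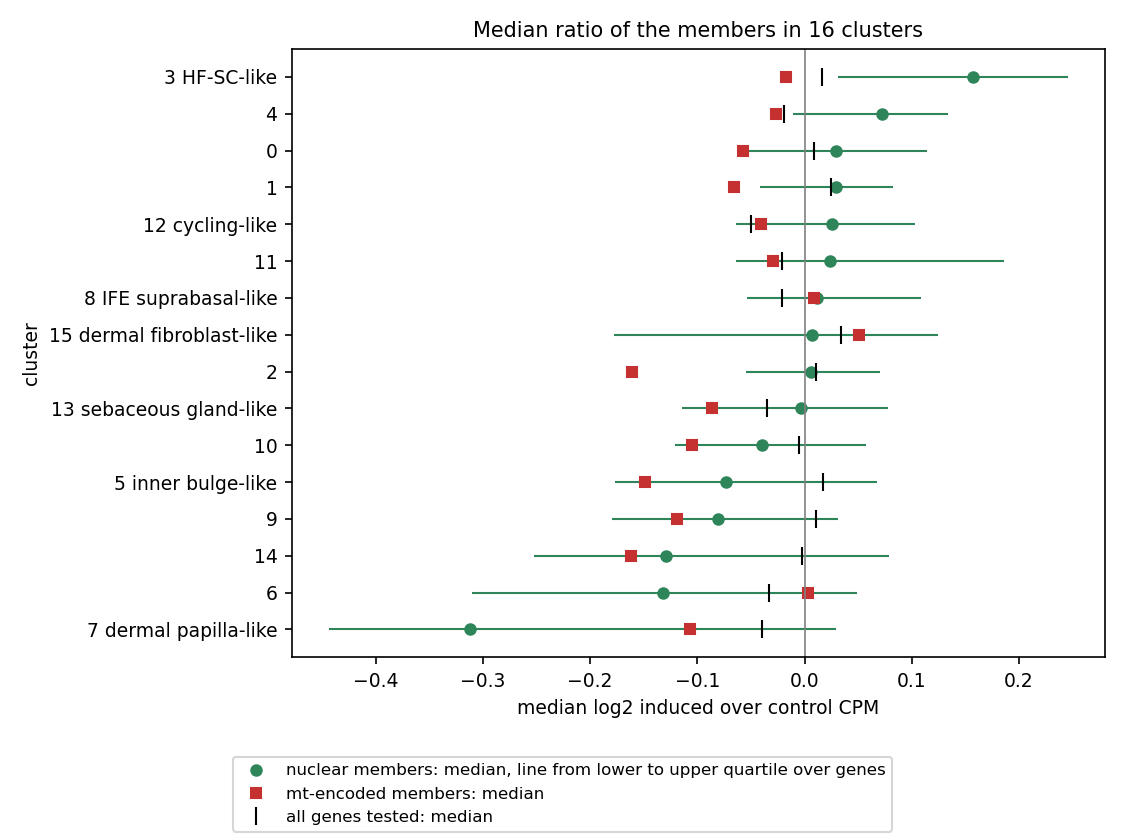
Median log2 ratio of induced over control CPM in 16 clusters for nuclear members (circles, with a line from the lower to the upper quartile over genes), mitochondrial members (squares) and all genes tested (ticks). Nuclear medians run from -0.31 in dermal papilla-like to 0.16 in HF-SC-like cells, while the medians of all genes stay near 0.

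A few members kept 1 direction over nearly all clusters. Of the 46 nuclear members tested in all 16 clusters, 5 were higher in the induced library in at least 14 clusters and 4 were lower, which is 10.9% and 8.70%, against 7.27% and 9.41% of 1265 genes. These shares are near the background for nuclear members. Of the 11 mitochondrial members tested in all 16, 0 were higher and 4 lower (36.4%). Clusters of 1 library share their animal, so agreement over clusters is not repetition over mice.

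Cox7a2l is known for a role in supercomplexes of complexes III and IV, which were not measured here. It was higher in 16 of 16 clusters, with a median log2 ratio of 0.34 and a range of 0.04 to 0.72. Its levels were 258 and 318 CPM in HF-SC-like cells, 161 and 239 CPM in inner bulge-like cells and 241 and 348 CPM in cycling-like cells (control and induced), but 405 and 424 CPM in cluster 10. Atp5c1 was higher in 15 clusters, and Uqcrh, Ndufb5 and Atp5g2 in 14. In the opposite direction, Uqcrb was lower in 16 of 16 clusters (median -0.13), and Cox7c, Ndufa11 and Uqcrq in 14. These are counts of sign, and many ratios lay within counting error. The interval was above 0 in 13 clusters for Cox7a2l, 10 for Uqcrh, 8 for Atp5c1, 7 for Atp5g2 and 4 for Ndufb5. It was below 0 in 10 clusters for Cox7c, 9 for Ndufa11 (above 0 in 1), 8 for Uqcrb and 6 for Uqcrq. Of the mitochondrial members, mt-Nd4l (median -0.33, -0.66 to -0.07) and mt-Nd3 (-0.17) were lower in 16 of 16, mt-Nd1 and mt-Nd2 in 14, and mt-Atp8 in all 14 clusters where it was tested. Their intervals were below 0 in 13 clusters for mt-Nd4l, 11 for mt-Nd3 and for mt-Nd1, 9 for mt-Nd2 (above 0 in 2) and 5 for mt-Atp8. Relative to the median of all genes in each cluster, Cox7a2l, Uqcrb, mt-Nd4l and mt-Nd3 kept their direction in 16 of 16 clusters, whereas Cox7c and mt-Nd1 kept it in 13 and mt-Nd2 in 12.

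**Figure D5:**
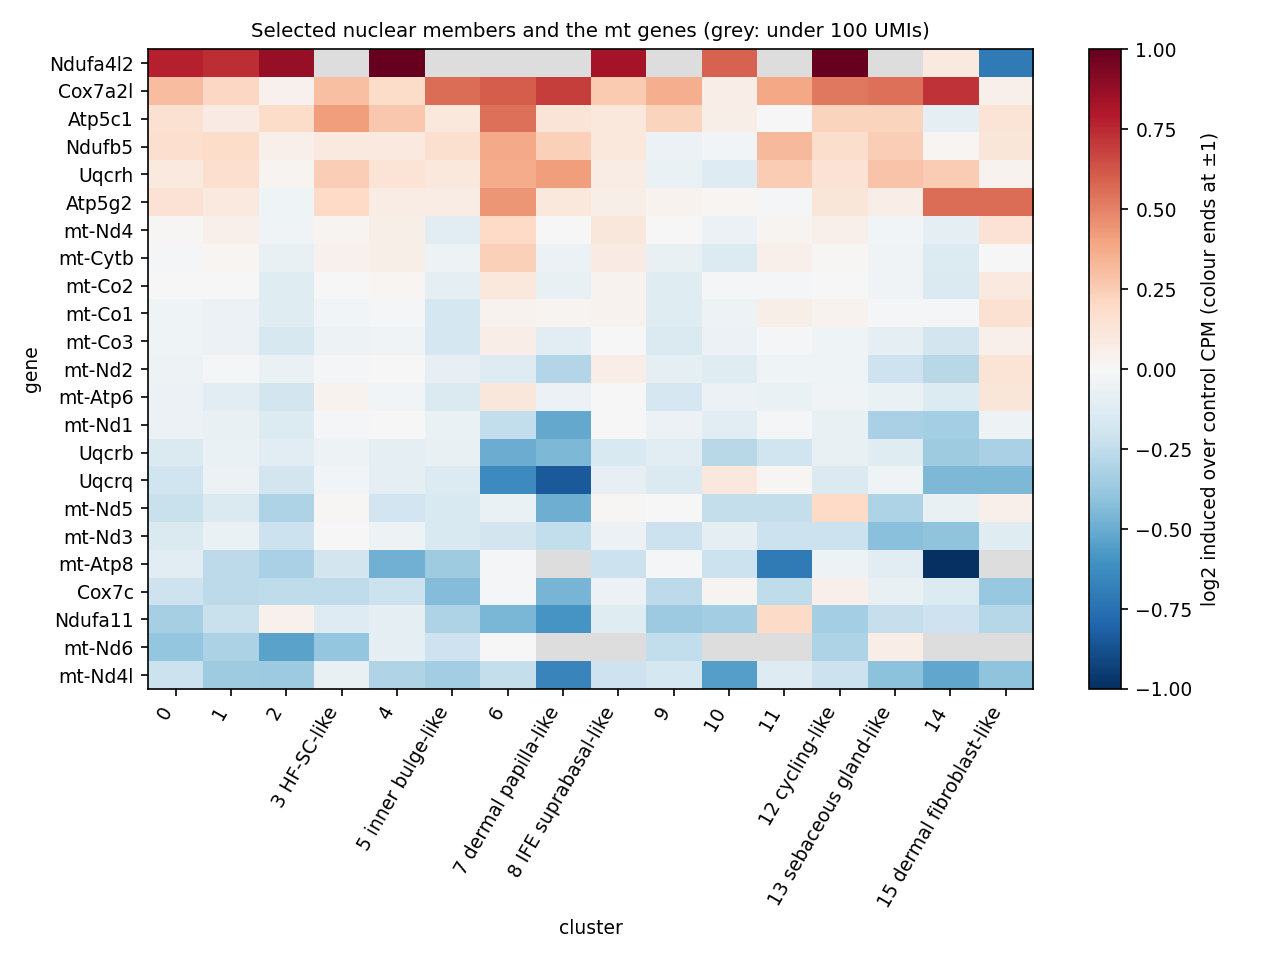
Log2 ratio of induced over control CPM (colour, ends at 1 and -1) for 10 nuclear members and the 13 mitochondrial genes in 16 clusters, grey where a gene had under 100 UMIs. The rows of Cox7a2l and of mt-Nd4l each show a single colour across all 16 clusters, higher and lower in the induced library, and Ndufa4l2 is higher in 8 of the 9 clusters where it was tested.

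Ndufa4l2 was higher in the induced library in 8 of the 9 clusters where it had enough UMIs. Its log2 ratio was 1.19 in cycling-like cells (204.5 and 465 CPM), 1.00 in cluster 4, 0.83 in suprabasal IFE-like cells, 0.78 in cluster 0 and 0.59 in cluster 10. In dermal fibroblast-like cells it was lower (726 and 444 CPM, -0.71). The gene was thus past 1.5-fold higher in 7 clusters and past 1.5-fold lower in the fibroblast cluster alone among the 9.

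Genes that feed, build or replace the chain were read from lists of their own. The 17 listed enzymes of the tricarboxylic acid cycle, which supplies NADH, had a median log2 ratio of 0.04 over all kept cells, 0.13 in HF-SC-like cells, -0.17 in cluster 6, -0.03 in dermal papilla-like cells and 0.08 in sebaceous gland-like cells. Assembly factors stood at 0.16, 0.13, 0.10, 0.15 and -0.06 in the same order, electron carriers with Cox4i1 at -0.01, -0.13, -0.00, -0.19 and 0.02, and complex II, which has no mitochondrially encoded subunit, at 0.03, 0.02, 0.09, -0.50 (1 gene) and -0.12. Genes of mitochondrial transcription and biogenesis had medians of 0.05, -0.11 and -0.02 in the first 3 and -0.02 in sebaceous gland-like cells, with none tested in dermal papilla-like cells. Mitochondrial ribosomal protein genes were at 0.05, 0.18 (34 of 45 higher), 0.06, -0.19 (8 genes) and 0.02, and the list of tissue isoforms at 0.01, 0.09, -0.17, -0.36 and -0.01. Cytosolic ribosomal protein genes, the other large set of nuclear housekeeping genes, were at 0.01 over all kept cells, 0.04 in HF-SC-like cells, 0.07 in cluster 6, 0.12 in sebaceous gland-like cells and 0.28 in dermal papilla-like cells (77 of 79 higher), the population where nuclear respiratory members were lowest.

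Glycolysis genes were at 0.14 over all kept cells, -0.12 in dermal papilla-like cells and 0.16 in HF-SC-like cells (9 higher, 5 lower), although their summed share there was 0.285% and 0.283%. They stood at -0.32 in cluster 6 (3 and 9) and -0.26 in sebaceous gland-like cells (2 and 10), where Eno1, an enolase whose reads may be split with a near-identical retrogene copy (208 and 86.2 CPM, -1.27), and Hk2, a hexokinase (72.0 and 30.3 CPM, -1.24), were past 2-fold. In HF-SC-like cells the listed genes past 2-fold were the complex IV assembly factors Coa3 (11.9 and 25.2 CPM, 1.07) and Surf1 (11.9 and 24.2 CPM, 1.01). Cluster 6 had Surf1 (18.4 and 41.2 CPM, 1.15), the complex I assembly factor Acad9 (17.6 and 38.2 CPM, 1.11) and Pprc1, a coactivator of nuclear respiratory genes (35.5 and 15.2 CPM, -1.22). No listed gene passed it in dermal papilla-like cells.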

How the data were processed

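Single-cell RNA-seq measured mRNA in cells of back skin from 1 control and 1 miR-205-inducible mouse, with 1 library each. The authors ran Cell Ranger with build mm10, per the labels, and deposited raw whole-number UMI counts of each gene in each barcode, in matrices whose header names software version 3.0.1. From these counts, cells with more than 200 and fewer than 5000 genes and under 10% mitochondrial UMIs were kept, as the study's methods state. Integration and clustering used Seurat 5.3.0 under R 4.3.3 (2000 variable genes, 30 dimensions, Louvain resolution 0.8), with 362 genes, the members and listed genes among them, withheld from the variable genes.

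A cluster was named where at least 3 markers with at least 20 UMIs were raised at least 2-fold, at least 1 marker was among its top 10 genes by fold, and no other class had more markers there. After the clusters were seen, a top gene was also required to have at least 20 UMIs and 50 CPM, ties stayed unnamed, and the named class had to have the highest share of its markers raised. Doublets were not removed, since the automatic Scrublet threshold marked only 4 control and 5 induced barcodes.

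Counts were summed per cluster and library and scaled to CPM in Python 3.11.15 with numpy 2.4.6, scipy 1.17.1 and pandas 2.3.3. Log2 ratios used a pseudocount of 0.5 UMIs and are given where both libraries together held at least 100 UMIs of the gene in the population. Intervals are exact at 95% (conditional binomial for ratios, Clopper-Pearson for shares, Poisson for CPM). The ratio step was checked on simulated Poisson counts with known fold changes, and the median step on independent normal values with a known median. Neither simulation held a spread between cells or animals, so these checks cover the calculation only.

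Genes named are all mitochondrial members; in each population described, the 3 highest and 3 lowest nuclear ratios among members with at least 200 UMIs; the 6 nuclear members with the widest control range over clusters; the listed isoforms; and listed pathway genes past 2-fold. The single-gene values of 1 nuclear member are not reported here. Members, gene lists and rules were chosen with earlier results of these data known. Promoter and microRNA sequences came from RefSeq tables of GRCm38.p6. Alternatives to the total, the summing, the cell filter, the doublet treatment, the UMI minimum and the clustering are given in the closing section.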

Additional observations from a re-analysis of the deposited data

Results flagged for a closer look

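In 7 clusters the nuclear members' median log2 ratio of induced over control CPM lay to one side of 0 by its order-statistic interval over genes, and the sides differed. The median was above 0 in HF-SC-like cells (cluster 3, 0.16, 0.09 to 0.20) and in cluster 4 (0.07, 0.05 to 0.10). It was below 0 in cluster 6 (-0.13, -0.21 to -0.01), dermal papilla-like cells (cluster 7, -0.31, -0.38 to -0.17), cluster 9 (-0.08, -0.13 to -0.05), cluster 10 (-0.04, -0.09 to -0.01) and cluster 14 (-0.13, -0.20 to -0.00). The difference between clusters was not tested, because each group had 1 library, and genes are not replicates: these intervals measure the spread over genes, not counting error.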

How the results depend on the processing

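Of 107 alternative values over 17 results, 87 kept their value within its interval or spread, 19 moved and 1 reversed. No paired analysis was possible because each group had 1 library. The nuclear medians of HF-SC-like cells (0.13 to 0.20), cluster 6 (-0.33 to -0.08) and dermal papilla-like cells (-0.32 to -0.26) kept their sign in 9 of 9 alternatives each. The near-zero nuclear medians did not: over all kept cells the value was -0.0635 with median-of-ratios scaling, -0.0143 under a 5% mitochondrial limit and -0.0233 with no upper limits. The near-zero mitochondrial median of HF-SC-like cells kept its sign in 7 of 9 alternatives (-0.03 to 0.01). Under the 5% limit cluster 6 had -0.33 over 55 genes, and with members among the variable genes -0.24, where the matching cluster held 262 of its 408 cells. Sebaceous gland-like cells under that limit, 10 and 11 cells, had 0.31 over 6 nuclear genes and 0.35 over 8 mitochondrial genes, the reversed value.

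Shares of UMIs in the control library moved as follows. HF-SC-like cells had nuclear shares of 0.972% under the 5% limit, 1.08% of non-mitochondrial UMIs and 0.998% as a mean over cells, and mitochondrial shares of 4.32% under the limit and 5.79% as a mean over cells. Sebaceous gland-like cells had nuclear shares of 2.72% under the limit, 3.04% without the highest-scoring doublet candidates, 3.23% of non-mitochondrial UMIs and 3.07% as a mean over cells. Their mitochondrial shares were 3.53%, 8.05% and 7.41% under the limit, without those candidates and as a mean over cells. By construction, the limit removes cells with high mitochondrial shares and the second total is smaller, and the cause of the other moves was not tested.

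After the data were seen, ratios were also centred on the median of all genes of each cluster. Of mitochondrial members lower in at least 14 of 16 clusters, 2 of 4 remained, and of nuclear members 3 of 4 lower and 5 of 5 higher. After centring, 10.9% of the 46 nuclear members tested in all 16 clusters were higher and 6.52% lower, against 7.43% and 9.64% of 1265 genes. These nuclear shares stay near the background. Of the 11 mitochondrial members, 18.2% were lower.

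With 1 mouse per group the spread between animals is unknown, so no statement on miR-205 follows. Depth limits single genes in small clusters: 51 of 73 nuclear members had at least 100 UMIs in dermal papilla-like cells.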

Other observations

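Outside the 16 clusters with at least 50 cells in each library, a second small HF-SC-like cluster (19, 30 control and 60 induced cells) had nuclear shares of 1.82% (1.77 to 1.88) and 1.77% (1.73 to 1.81) and mitochondrial shares of 7.23% and 7.16%. The larger HF-SC-like cluster had nuclear shares of 1.02% and 1.10% and mitochondrial shares of 5.59% in both. Median depths were 6937.5 and 8116.5 UMIs in the small cluster against 9926 and 10286 in the larger. Both libraries gave the same order, and the clusters shared Cd34, Lhx2, Postn, Krt24 and Krt15 as raised markers, while Scrg1, Chat and Scx were among the leading genes of the small one. Cluster 17, led by Fgf18 and Krt75 with 18 and 76 cells, had nuclear shares of 1.48% and 1.56% and mitochondrial shares of 7.52% and 7.12%.

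Immune clusters were not alike. Langerhans or antigen-presenting-like cells of cluster 16, with Cd207 raised, had mitochondrial shares of 5.68% and 5.82%, and those of cluster 20, with Lyz2 raised, 4.16% and 4.10%. Nuclear shares were 1.07% and 1.28% in the first and 1.24% and 1.36% in the second. T cell-like cells of cluster 21 (28 and 28 cells) had mitochondrial shares of 6.37% and 6.30%, and melanocyte-like cells 7.67% and 6.27%. Cluster 18, with 17 control and 77 induced cells, also had all 6 T cell markers raised but went unnamed by the rule, and its shares are not given. The shares in this paragraph rest on 24 to 52 control cells a cluster.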
